A study of Mus musculus with 8 samples.

Results

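The proteasome genes of mouse B cell leukemias are described here across 8 arrays. They were taken from the deposited gene table by name: every gene called PSMA, PSMB, PSMC, PSMD or PSME followed by digits alone, which gave 38 of 16419 genes. By the same rule the RefSeq gene table of mouse holds 43 genes; Psma4, Psma5, Psma8, Psmb3 and Psmb5 are not among the rows of the gene table used here and were read from their probe sets instead. Total RNA of isolated leukemia cells was hybridised to Mouse Exon 1.0 ST arrays of Affymetrix, with 4 ROR1xTCL1 and 4 TCL1 mice and a single array per mouse. All 8 mice carried the TCL1 transgene, a B cell oncogene driven by the immunoglobulin heavy chain enhancer (Eµ-TCL1). In addition, the ROR1xTCL1 mice had a transgene for ROR1, a cell surface receptor of the Ror family. The age of the mice and the promoter of the ROR1 transgene are not given in the sources used here. The comparison asks whether leukemias that arose with both transgenes differ from those that arose with TCL1 alone.

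The 26S proteasome degrades proteins tagged with ubiquitin. Its barrel, the 20S core, stacks rings of alpha subunits (Psma genes) around rings of beta subunits (Psmb genes), some of which cut peptide bonds, and its 19S cap, built from ATPases (Psmc genes) and other subunits (most Psmd genes), binds, deubiquitinates, unfolds and feeds the substrate into the barrel. In lymphoid cells and under interferon-gamma, the catalytic subunits Psmb8, Psmb9 and Psmb10 take the places of Psmb5, Psmb6 and Psmb7, and the resulting immunoproteasome makes peptides for MHC class I. In human leukemias and myeloma the proteasome is known as a drug target.

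Gene values are given on the log2 scale; the scale of the gene table is not stated and was read from its range, and every difference rests on this reading. The columns of that table name the genotype but no mouse number, so they are called arrays a to d of each genotype, and the probe set columns, which carry numbers, are called replicates 1 to 4; letters and numbers were not tied to each other. Array medians ran from 5.03 to 5.09. The defining B cell markers were high on every array, with Cd79a at 11.54, 11.68, 11.72 and 11.79 on ROR1xTCL1 arrays a to d and at 11.71, 11.88, 11.86 and 11.74 on TCL1 arrays a to d. Ror1, the check of the labels, read 4.07, 4.85, 4.25 and 4.49 on ROR1xTCL1 arrays a to d, against 3.67, 3.68, 3.72 and 4.03 on TCL1 arrays a to d. The groups did not overlap, as held for 1.1% of all genes, and the adjusted p was 0.9995 (limma). All 8 values lay under the array medians, and whether the probes read the transgene was not tested. Markers of other cells differed between arrays of 1 genotype: the neutrophil list of 10 genes, scored as its mean distance from each gene's average, was lower in ROR1xTCL1 in 10 of 10 genes by its means (1 at an unadjusted p under 0.05, Cebpe, and 0 adjusted, limma) and stood at -0.22, -0.22, -0.71 and -0.61 on ROR1xTCL1 arrays a to d and at 2.65, -1.17, 1.37 and -1.08 on TCL1 arrays a to d, where Elane, a defining member, lay between 5.18 and 8.64 over the 8 arrays. Other lists varied between arrays too. The erythroid score ran from 1.75 on ROR1xTCL1 array a to -0.91 on ROR1xTCL1 array b. The plasma cell score ran from 1.29 on ROR1xTCL1 array d to -1.02 on TCL1 array d, and the monocyte and macrophage score from 1.15 on TCL1 array a to -0.84 on TCL1 array d. Y-linked genes were high on ROR1xTCL1 arrays c and d and on TCL1 array c. These are bulk samples, in which fewer cells of a type and less RNA per cell cannot be told apart.

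Nearly all proteasome genes lay in the upper part of the signal range of these leukemias, and no member passed the test between the genotypes. Of the 38 genes, 35 lay above the array median on all 8 arrays, and 0 passed the test between ROR1xTCL1 and TCL1 (limma across all 16419 genes, adjusted p under 0.05; percent called over all genes 0%; adjusted p = 0.9995 for every member). At an unadjusted p under 0.05 there were 0 of 38 (1.63% of all genes), and 0 had groups that did not overlap (1.1% of all genes). The mean difference, ROR1xTCL1 minus TCL1, was above 0 for 26 genes and below 0 for 12, or 68.4% above 0 beside 45.9% of all genes. It ran from -0.27 (Psmb10) to 0.32 (Psme2) with a median of 0.05, beside -0.01 over all genes. The median size without sign was 0.09 for the proteasome genes and 0.09 for all genes.

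The intervals of these differences bound what 4 mice a group could show. The 95% interval lay within a 2-fold difference either way for 37 of the 38 genes (92.8% of all genes), with Psme2 as the exception, and within 1.5-fold for 29 (72% of all genes). Their median half-width was 0.30 log2 units, beside 0.34 over all genes. Between the 8 leukemias the proteasome genes spanned a median range of 0.53 log2 units, beside 0.63 over all genes. Psmb8, Psmb9, Psmd4, Psme2, Psme3 and Psme4 spanned over 1 log2 unit, which is 6 of 38 genes, beside 21.9% of all genes.

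**Figure D1:**
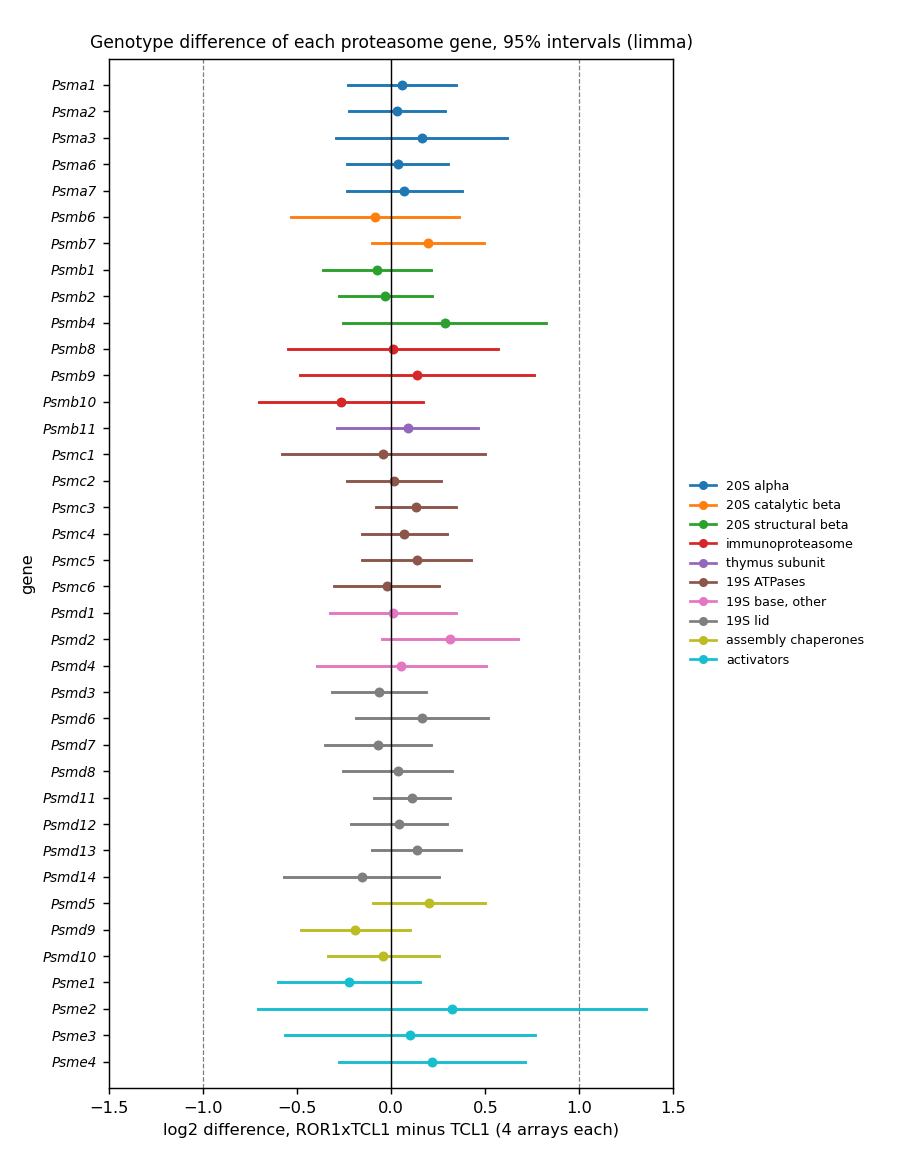
Difference in log2 gene value between ROR1xTCL1 and TCL1 leukemias for each of the 38 proteasome genes (points, 4 arrays each), with 95% intervals of the limma fit as lines, coloured by structural group. Every interval crosses 0, and the interval of Psme2 alone passes the dashed lines at a 2-fold difference.

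**Figure D2:**
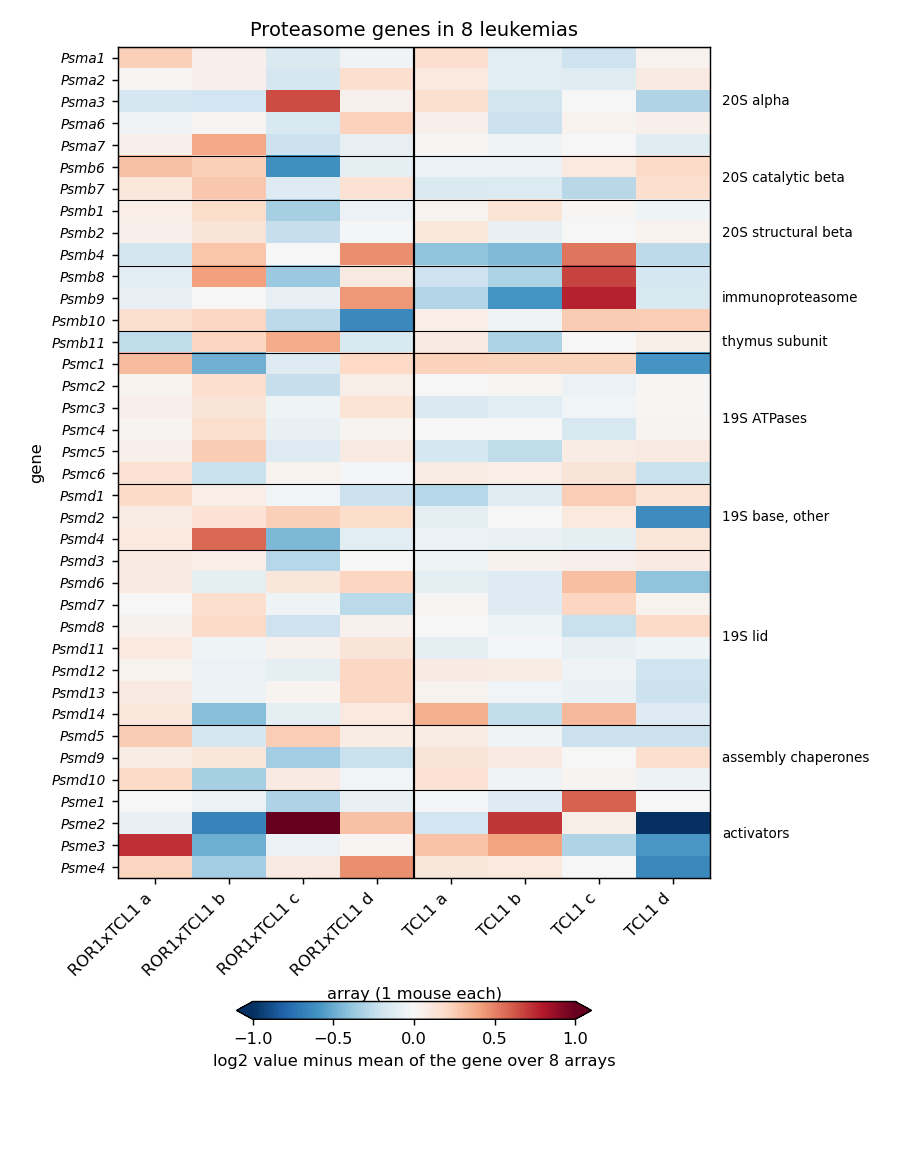
Log2 value of each proteasome gene minus its mean over the 8 arrays, with ROR1xTCL1 arrays on the left and TCL1 arrays on the right; colours stop at 1 log2 unit either way. Psmb8, Psmb9 and Psme1 are highest on TCL1 array c, and Psme2 has the widest spread.

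The alpha ring forms the outer rings of the barrel and its gate. All 5 measured genes of the 7 had a mean difference above 0, at 0.03 to 0.16 with a median of 0.06, and none of these passed the test. Psma7 read 7.39, 7.71, 7.12 and 7.25 on ROR1xTCL1 arrays a to d, against 7.34, 7.30, 7.34 and 7.21 on TCL1 arrays a to d. The difference was 0.07 ± 0.14 (SE), with a limma unadjusted p of 0.619, and the groups overlapped, with both the highest and the lowest value in ROR1xTCL1. Psma3 averaged 1.88 ± 0.40 in ROR1xTCL1 and 1.72 ± 0.20 in TCL1 in the gene table (SD over 4 arrays), under the first quartile of every array. From probe sets, Psma4 averaged 8.25 ± 0.10 in ROR1xTCL1 and 8.17 ± 0.16 in TCL1, and Psma5 averaged 5.76 ± 0.10 in ROR1xTCL1 and 5.60 ± 0.29 in TCL1 (SD over 4 arrays). The probe sets that Psma5 shares with a predicted gene, 19 in number, were left out.

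The constitutive catalytic subunits carry the peptidase sites of the ordinary core. Psmb5, the chymotrypsin-like subunit and the main target of the drug bortezomib, read 9.21, 8.60, 8.90 and 9.30 on ROR1xTCL1 replicates 1 to 4 in its 8 probe sets, against 9.09, 8.83, 9.38 and 8.09 on TCL1 replicates 1 to 4. TCL1 replicates held both its highest and its lowest value, and the difference was 0.16 ± 0.27 (SE; limma unadjusted p = 0.581). Without TCL1 replicate 4, which had the widest scatter between probe sets, the mean difference was on the other side of 0, at -0.10 (9.002 in ROR1xTCL1 and 9.10 in TCL1; no test). Without that replicate the mean differences of the other core genes read from probe sets alone were 0.005 for Psma4, 0.026 for Psma5 and -0.05 for Psmb3, against 0.08, 0.17 and 0.12 with it. Psmb6, the caspase-like subunit, read 7.46, 7.41, 6.55 and 7.07 on ROR1xTCL1 arrays a to d, against 7.11, 7.11, 7.27 and 7.36 on TCL1 arrays a to d. It was lowest on ROR1xTCL1 array c, and the 4 TCL1 values lay inside the ROR1xTCL1 range; the difference was -0.09 ± 0.20 (SE). Psmb7, the trypsin-like subunit, read 8.99, 9.16, 8.76 and 9.03 on ROR1xTCL1 arrays a to d, against 8.75, 8.75, 8.61 and 9.05 on TCL1 arrays a to d. TCL1 array d stood among the ROR1xTCL1 values, and the difference of 0.20 ± 0.13 (SE) did not pass (limma unadjusted p = 0.175).

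Among the structural beta subunits, which have no peptidase site, 1 of 3 measured genes was above 0 and 2 were below, with a median of -0.03. Psmb4 read 8.15, 8.62, 8.34 and 8.80 on ROR1xTCL1 arrays a to d, against 7.94, 7.90, 8.87 and 8.08 on TCL1 arrays a to d. ROR1xTCL1 arrays b and d and TCL1 array c were high, and the other 3 TCL1 arrays were the lowest of all. The difference was 0.28 ± 0.24 (SE; limma unadjusted p = 0.264); without TCL1 array c it was 0.51 (unadjusted p = 0.0169, adjusted p = 0.9999), and without ROR1xTCL1 array d it was 0.17 (unadjusted p = 0.51). Psmb1 read 8.31, 8.43, 7.91 and 8.18 on ROR1xTCL1 arrays a to d, against 8.28, 8.38, 8.26 and 8.20 on TCL1 arrays a to d. Its difference was -0.07 ± 0.13 (SE), and ROR1xTCL1 array c was the lowest. Psmb3, read from 14 probe sets, averaged 10.51 ± 0.24 in ROR1xTCL1 and 10.39 ± 0.34 in TCL1 (SD over 4 arrays).

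The immunoproteasome subunits did not pass the test between the genotypes, and each spanned more over the 8 leukemias than the median member. Psmb8 read 8.11, 8.63, 7.85 and 8.31 on ROR1xTCL1 arrays a to d, against 8.01, 7.90, 8.90 and 8.05 on TCL1 arrays a to d. Psmb9 read 7.99, 8.08, 7.996 and 8.51 on ROR1xTCL1 arrays a to d, against 7.78, 7.48, 8.85 and 7.92 on TCL1 arrays a to d. Both were highest on TCL1 array c, while the other 3 TCL1 arrays lay below every ROR1xTCL1 value for Psmb9 and inside the ROR1xTCL1 range for Psmb8. The highest and lowest arrays stood 2.07-fold apart for Psmb8 and 2.58-fold apart for Psmb9. The genotype difference was 0.01 ± 0.25 (SE) for Psmb8 and 0.14 ± 0.28 (SE) for Psmb9 (limma unadjusted p = 0.965 and 0.631). Without TCL1 array c these were 0.24 (unadjusted p = 0.229) and 0.42 (unadjusted p = 0.0422), with an adjusted p of 0.9999 for both. Without ROR1xTCL1 array d the Psmb9 difference was 0.014 (unadjusted p = 0.962), and without ROR1xTCL1 array b the Psmb8 difference was -0.12 (unadjusted p = 0.635). From probe sets the difference was 0.08 ± 0.24 (SE) for Psmb8 and 0.01 ± 0.22 (SE) for Psmb9.

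Psmb10 followed another order. Psmb10 read 9.73, 9.78, 9.31 and 8.93 on ROR1xTCL1 arrays a to d, against 9.64, 9.54, 9.83 and 9.82 on TCL1 arrays a to d. ROR1xTCL1 arrays c and d were the lowest of the 8, and ROR1xTCL1 arrays a and b stood among the TCL1 values. The difference was -0.27 ± 0.19 (SE) with a 95% interval of -0.71 to 0.17 (limma unadjusted p = 0.2), and -0.10 without ROR1xTCL1 array d. In the probe set table, ROR1xTCL1 replicate 4 was the lowest of 8 in 8 of the 9 Psmb10 probe sets, and TCL1 replicate 3 was the highest in 6 of 11 Psmb8 and 13 of 16 bright Psmb9 probe sets (those with a mean above 3.63, the median of all probe set values).

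Psmb8 and Psmb9 lie beside the peptide transporter genes in RefSeq, in the order Psmb9, Tap1, Psmb8 and Tap2 on chromosome 17. The promoter windows of the immunoproteasome genes and of the interferon-inducible activator Psme1 are shown because these genes were highest on TCL1 array c. Psmb10 was so only narrowly, at 9.828 against 9.819 on TCL1 array d. The windows of Psmb5 and Psmb6 are shown because they are the subunits that Psmb8 and Psmb9 replace. Each RefSeq window (GRCm38.p6) holds 300 bases, 250 before and 50 after the gene start, and reads 5′ to 3′ on the strand of the gene. They lie at chr17:34197945-34198244 on the plus strand for Psmb8, chr17:34187281-34187580 on the minus strand for Psmb9, chr8:105938343-105938642 on the minus strand for Psmb10, chr14:55578244-55578543 on the plus strand for Psme1, chr14:54617946-54618245 on the minus strand for Psmb5 and chr11:70525107-70525406 on the plus strand for Psmb6. Capitals mark matches to the antioxidant response core TGACNNNGC, the CCAAT box, the interferon-stimulated response core (GAAA, 2 bases of any kind, GAAA) and the interferon-gamma activated site TTCNNNGAA, each searched on both strands.
Psmb8: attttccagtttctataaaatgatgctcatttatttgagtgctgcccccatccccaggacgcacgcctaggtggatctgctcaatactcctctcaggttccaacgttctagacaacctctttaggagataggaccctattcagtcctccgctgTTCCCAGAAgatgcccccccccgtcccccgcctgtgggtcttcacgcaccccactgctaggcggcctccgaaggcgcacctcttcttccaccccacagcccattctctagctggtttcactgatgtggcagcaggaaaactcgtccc
Psmb9: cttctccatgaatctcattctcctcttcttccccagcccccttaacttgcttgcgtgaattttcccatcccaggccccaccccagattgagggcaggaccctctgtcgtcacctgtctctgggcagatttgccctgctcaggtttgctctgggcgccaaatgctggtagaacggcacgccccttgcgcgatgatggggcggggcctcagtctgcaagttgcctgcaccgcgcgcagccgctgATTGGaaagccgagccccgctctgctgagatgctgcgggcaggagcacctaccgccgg
Psmb10: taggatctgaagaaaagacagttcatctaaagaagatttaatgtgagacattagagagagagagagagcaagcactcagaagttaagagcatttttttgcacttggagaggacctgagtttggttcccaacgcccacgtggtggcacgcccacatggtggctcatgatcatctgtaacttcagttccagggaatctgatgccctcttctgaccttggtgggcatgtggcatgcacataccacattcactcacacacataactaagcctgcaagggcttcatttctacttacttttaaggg
Psme1: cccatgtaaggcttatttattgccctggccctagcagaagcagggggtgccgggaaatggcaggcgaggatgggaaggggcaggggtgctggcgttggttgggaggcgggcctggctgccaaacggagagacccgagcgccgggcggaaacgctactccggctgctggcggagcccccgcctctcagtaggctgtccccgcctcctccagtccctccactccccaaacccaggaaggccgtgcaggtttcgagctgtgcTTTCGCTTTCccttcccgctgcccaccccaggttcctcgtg
Psmb5: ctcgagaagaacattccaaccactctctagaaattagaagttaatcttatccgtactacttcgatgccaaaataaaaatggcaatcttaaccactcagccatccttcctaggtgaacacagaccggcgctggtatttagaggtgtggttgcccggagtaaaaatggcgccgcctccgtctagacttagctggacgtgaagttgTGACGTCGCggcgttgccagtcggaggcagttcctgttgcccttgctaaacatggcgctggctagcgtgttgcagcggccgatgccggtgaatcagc
Psmb6: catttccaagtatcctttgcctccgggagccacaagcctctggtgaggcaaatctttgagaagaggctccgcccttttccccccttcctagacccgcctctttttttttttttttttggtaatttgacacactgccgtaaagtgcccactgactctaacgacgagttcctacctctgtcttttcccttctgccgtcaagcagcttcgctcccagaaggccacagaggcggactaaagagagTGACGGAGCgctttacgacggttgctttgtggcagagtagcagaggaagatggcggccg

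The Psmb8 window holds a TTCNNNGAA match, the Psme1 window a match to the interferon-stimulated response core on the minus strand, and the Psmb9 window a CCAAT match on the minus strand. No match to the 4 motifs lies in the Psmb10 window, which says only that these letters are not there. The Psmb5 and Psmb6 windows each hold a TGACNNNGC match. The Psmb9 window shares 275 bases with the Tap1 window, which runs on the opposite strand. Of the 38 genes, 32 had a window. TGACNNNGC was in 5 of these (15.62%; 13.99% of all 27025 genes with a window), namely Psmb6, Psmc6, Psmd12, Psmd9 and Psme4, CCAAT in 13 (40.62%; 41.06%), the interferon-stimulated response core in 3 (9.38%; 3.99%), namely Psmd4, Psmd9 and Psme1, and TTCNNNGAA in 2 (6.25%; 9.55%), namely Psmb8 and Psmd2. No matches overlapped in the windows shown. A match is a string of letters and was not tested as a binding site.

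The peptide transporter genes followed Psmb8 and Psmb9 over the 8 leukemias; Tap1, Tap2 and Tapbp are named after their values were seen. Tap1 read 8.11, 8.42, 8.30 and 8.63 on ROR1xTCL1 arrays a to d, against 8.03, 8.004, 9.03 and 8.34 on TCL1 arrays a to d. Tap2 read 6.26, 6.70, 6.63 and 6.60 on ROR1xTCL1 arrays a to d, against 6.27, 6.14, 7.32 and 6.47 on TCL1 arrays a to d. TCL1 array c was again the highest of 8 for both, and TCL1 array b the lowest. Over the 8 arrays, Pearson's r was 0.80 between Psmb8 and Psmb9, 0.95 between Psmb9 and Tap1, and 0.89 between Psmb8 and Tapbp, the peptide-loading chaperone. Without TCL1 array c, r was 0.56, 0.89 and 0.75. The other pairs fell further. Between Psmb8 and Tap1 r was 0.58 without that array and 0.82 with it, and between Psmb8 and Tap2 0.55 and 0.82. Between Psmb9 and Tap2 it was 0.72 and 0.88, and between Psmb9 and Tapbp 0.45 and 0.79. Psmb10 had r of -0.12 with Psmb9 and -0.05 with Tap1, and without TCL1 array c these were -0.57 and -0.53. With Psmb8, Tapbp and Tap2 its r was above 0, at 0.29, 0.37 and 0.13. Without that array these were 0.07, 0.17 and -0.30. These correlations rest on the same 8 arrays and are descriptions.

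**Figure D3:**
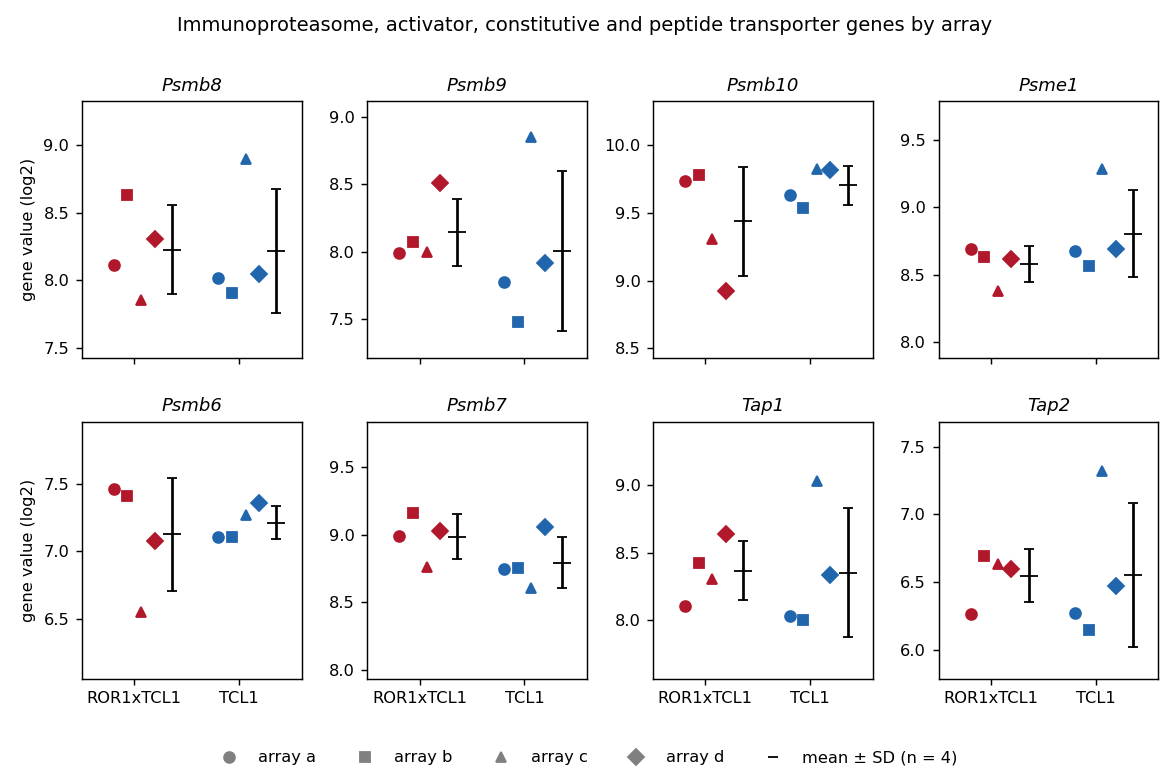
Log2 gene values of 8 genes by array, with ROR1xTCL1 in red on the left and TCL1 in blue on the right of each panel, 1 marker per array letter, and the mean ± SD of 4 arrays in black; each panel spans the same number of log2 units. TCL1 array c (triangle) is the highest point for Psmb8, Psmb9, Psme1, Tap1 and Tap2, narrowly the highest for Psmb10, and the lowest for Psmb7.

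On TCL1 array c the neutrophil list was also high, at 1.37. TCL1 array a, the highest for that list at 2.65, had an immunoproteasome score of -0.15. Pomp, the maturation factor of the core, and Irf1, an interferon-induced transcription factor, were highest on TCL1 array c as well, at 8.10 and 7.97. The immunoproteasome score, the mean distance of Psmb8, Psmb9 and Psmb10 from their averages, was -0.01, 0.21, -0.24 and -0.04 on ROR1xTCL1 arrays a to d and -0.15, -0.32, 0.57 and -0.03 on TCL1 arrays a to d. Less the same score of Psmb6 and Psmb7, it was -0.21, -0.05, 0.14 and -0.06 on ROR1xTCL1 arrays a to d and -0.05, -0.22, 0.66 and -0.20 on TCL1 arrays a to d. TCL1 array c stood above the other 7 by both scores. With Psmb5 included, from probe sets, the second score was -0.26, 0.21, 0.00 and -0.28 on ROR1xTCL1 replicates 1 to 4 and -0.22, -0.10, 0.43 and 0.23 on TCL1 replicates 1 to 4. TCL1 replicate 3 was the highest there, and the groups overlapped. The parts of neutrophil content, of other cell content and of the Y-linked split in these scores were not tested.

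Among the ATPases of the 19S base, which unfold the substrate, 4 of 6 genes had a mean difference above 0 and 2 below, with a median of 0.04. Psmc3 read 6.86, 6.94, 6.76 and 6.94 on ROR1xTCL1 arrays a to d, against 6.67, 6.71, 6.78 and 6.82 on TCL1 arrays a to d. It spanned 0.27 log2 units over the 8 arrays, and its difference of 0.13 ± 0.09 (SE) did not pass (limma unadjusted p = 0.194). Psmc5 read 6.22, 6.42, 6.04 and 6.26 on ROR1xTCL1 arrays a to d, against 5.99, 5.91, 6.25 and 6.26 on TCL1 arrays a to d. TCL1 arrays a and b were the lowest, ROR1xTCL1 array b was the highest, and the difference was 0.13 ± 0.13 (SE).

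Psmd2, a scaffold of the base that docks ubiquitin receptors and shuttle factors, had the smallest p of the 38 genes. Psmd2 read 8.63, 8.69, 8.79 and 8.73 on ROR1xTCL1 arrays a to d, against 8.46, 8.55, 8.65 and 7.92 on TCL1 arrays a to d. The 4 ROR1xTCL1 values lay close together, 3 of the 4 TCL1 values lay just under or among them, and TCL1 array d stood lowest. The difference was 0.31 ± 0.16 (SE) with a 95% interval of -0.05 to 0.68 (limma unadjusted p = 0.0814, adjusted p = 0.9995). Without TCL1 array d it was 0.16, and with ROR1xTCL1 array b left out too, 0.16. Without TCL1 array c it was 0.40 (unadjusted p = 0.0409, adjusted p = 0.9999). Psmd4, a ubiquitin receptor, read 6.80, 7.27, 6.25 and 6.59 on ROR1xTCL1 arrays a to d, against 6.64, 6.63, 6.60 and 6.82 on TCL1 arrays a to d. Its 4 TCL1 values lay inside the ROR1xTCL1 range, and the difference was 0.05 ± 0.20 (SE). Psmd1, the other large scaffold, was above 0 too (0.01 ± 0.15, SE), which makes 3 of 3 genes of this group with a median of 0.05. Its gene value lies 3.10 log2 units below its 26 probe sets, which gave a difference of 0.21 ± 0.18 (SE), and from probe sets the median of the group was 0.21.

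The lid removes ubiquitin chains through Psmd14, its deubiquitinase, on a frame of scaffold subunits. Of its 8 genes 5 were above 0 and 3 below, from -0.16 (Psmd14) to 0.16 (Psmd6), with a median of 0.04. Psmd13 read 6.46, 6.32, 6.40 and 6.58 on ROR1xTCL1 arrays a to d, against 6.41, 6.34, 6.30 and 6.15 on TCL1 arrays a to d. The difference was 0.14 ± 0.10 (SE; limma unadjusted p = 0.227), and ROR1xTCL1 array b stood below 2 of the TCL1 arrays. Psmd11 read 9.74, 9.61, 9.69 and 9.78 on ROR1xTCL1 arrays a to d, against 9.56, 9.64, 9.58 and 9.61 on TCL1 arrays a to d. This scaffold gene spanned 0.22 log2 units over the 8 arrays, the least of the 38, and its difference was 0.11 ± 0.09 (SE). Psmd14 averaged 10.48 ± 0.25 in ROR1xTCL1 and 10.63 ± 0.31 in TCL1 (SD over 4 arrays).

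The assembly chaperones Psmd5, Psmd9 and Psmd10 help to build the base and leave it when it is complete. Psmd5 read 7.04, 6.61, 7.03 and 6.86 on ROR1xTCL1 arrays a to d, against 6.86, 6.75, 6.56 and 6.56 on TCL1 arrays a to d. The difference was 0.20 ± 0.13 (SE; limma unadjusted p = 0.166), and 0.29 without ROR1xTCL1 array b (unadjusted p = 0.0413, adjusted p = 0.9995). ROR1xTCL1 array b lay under TCL1 arrays a and b, and ROR1xTCL1 arrays a and c were the highest of the 8. Psmd9 read 6.35, 6.39, 5.93 and 6.06 on ROR1xTCL1 arrays a to d, against 6.41, 6.37, 6.27 and 6.44 on TCL1 arrays a to d. ROR1xTCL1 arrays c and d were the lowest, and the difference was -0.19 ± 0.13 (SE; limma unadjusted p = 0.168). With gene values taken as the mean of its 26 probe sets it was 0.04 ± 0.12 (SE), on the other side of 0. That mean holds 2 dim probe sets with an unadjusted p under 0.05 (limma), whose differences were 1.03 and 1.24. Their values ran from 1.0 to 3.0 and from 1.7 to 4.6 over the 8 arrays. Both averaged under 3.63, the median of all probe set values. The difference without these 2 alone was not computed. A setting with bright probe sets only left them out along with the other dim ones, and its Psmd9 difference is not given here.

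The activators cap the barrel in place of the 19S particle. Psme1, which with Psme2 forms the interferon-induced PA28 ring, read 8.69, 8.63, 8.38 and 8.62 on ROR1xTCL1 arrays a to d, against 8.68, 8.57, 9.29 and 8.69 on TCL1 arrays a to d. TCL1 array c was the highest and the other 3 TCL1 arrays lay close to ROR1xTCL1 arrays a, b and d; the difference was -0.22 ± 0.17 (SE), and -0.06 without TCL1 array c. In the probe set table TCL1 replicate 3 was the highest in 11 of its 14 probe sets. Psme2 read 8.82, 8.22, 9.99 and 9.18 on ROR1xTCL1 arrays a to d, against 8.70, 9.61, 8.95 and 7.67 on TCL1 arrays a to d. The extremes stood 5.01-fold apart and the difference was 0.32 ± 0.46 (SE). Of the annotated Psme2 probe sets 13 are shared with a Psme2 pseudogene and 2 are not, so the gene value may hold both; from the 2 alone the difference was 0.02 ± 0.21 (SE).

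Psme3 and Psme4 encode a nuclear activator ring and a single-chain activator. Psme3 read 10.15, 8.93, 9.36 and 9.44 on ROR1xTCL1 arrays a to d, against 9.71, 9.82, 9.12 and 8.84 on TCL1 arrays a to d. Psme4 read 7.57, 7.02, 7.45 and 7.82 on ROR1xTCL1 arrays a to d, against 7.47, 7.46, 7.35 and 6.71 on TCL1 arrays a to d. Both were lowest on TCL1 array d and low on ROR1xTCL1 array b, and within each genotype they spanned more than the distance between the group means. Their differences were 0.10 ± 0.29 (SE) and 0.22 ± 0.22 (SE; limma unadjusted p = 0.744 and 0.346). In the 66 bright probe sets of Psme4, TCL1 replicate 4 was the lowest of 8 in 43 and ROR1xTCL1 replicate 4 the highest in 34.

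The tissue-restricted subunits were dim. Psmb11, the catalytic subunit of thymic cortex, read 3.21, 3.68, 3.83 and 3.31 on ROR1xTCL1 arrays a to d, against 3.55, 3.15, 3.46 and 3.52 on TCL1 arrays a to d, around the first quartile of the arrays (3.52 to 3.71); no detection call was used. Psma8, the testis alpha subunit, read 2.47, 2.66, 2.79 and 2.99 on ROR1xTCL1 replicates 1 to 4 in 11 probe sets, against 3.27, 2.84, 2.89 and 2.84 on TCL1 replicates 1 to 4, below the median of all probe set values (3.63).

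As a mean over the 38 genes, the distance from each gene's average stayed within 0.12 log2 units on every array. The score of all members was 0.08, 0.02, -0.06 and 0.05 on ROR1xTCL1 arrays a to d and 0.00, -0.05, 0.07 and -0.12 on TCL1 arrays a to d. That of the 10 genes of the 20S core was 0.04, 0.14, -0.13 and 0.08 on ROR1xTCL1 arrays a to d and 0.00, -0.12, 0.01 and -0.02 on TCL1 arrays a to d. The 8 lid genes scored 0.07, -0.03, -0.07 and 0.08 on ROR1xTCL1 arrays a to d and 0.03, -0.06, 0.06 and -0.08 on TCL1 arrays a to d. The groups overlapped in all 3 scores. ROR1xTCL1 array c was the lowest for the core and TCL1 array d the lowest for the lid and for all members. ROR1xTCL1 array c was the lowest of the 8 arrays for 11 of 38 genes (12.9% of all genes) and TCL1 array d for 9 (12.7%). The proliferation list had 9 of 9 genes above 0 (0 at an unadjusted p under 0.05, limma), with a median difference of 0.21, the side of 0 on which 26 of the 38 proteasome genes lay. It scored 0.62, -0.31, -0.17 and 0.33 on ROR1xTCL1 arrays a to d and 0.06, -0.47, 0.39 and -0.44 on TCL1 arrays a to d. ROR1xTCL1 arrays a and d and TCL1 array c were the 3 highest both there and in the score of all proteasome genes, and the part of proliferation in it was not tested.

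The genes did not follow a single pattern over the 8 leukemias. In the gene table the median Pearson r over their 703 pairs was 0.07, beside 0.02 over pairs of all genes, and 0.05 with each genotype centred on its mean. An r above 0.7 was found for 62 pairs (8.82%; 4.13% of all pairs) and an r below -0.7 for 14 (1.99%; 3.24%). The closest pairs were Psmb6 with Psmd3 (0.95), Psmd13 with Psme4 (0.93), Psmc1 with Psmc6 (0.93) and Psmb4 with Psmb9 (0.92), and the most opposed were Psma3 with Psmd3 (-0.97). The 10 core genes had a median r of 0.32, the 17 genes of the 19S particle 0.05, the 8 lid genes -0.01 and the 4 activators 0.20. For the 3 immunoproteasome genes it was 0.29, and 0.14 from probe sets.

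When each gene was read as the mean of its probe sets, the same pairs had a median r of 0.25, beside 0.01 over all genes. An r above 0.7 was then found for 80 pairs (11.4%), and the medians were 0.53 for the core, 0.34 for the 19S particle, 0.31 for the lid and 0.57 for the activators. Leaving out a replicate in turn gave 0.14 (without ROR1xTCL1 replicate 1) to 0.32 (without ROR1xTCL1 replicate 2). TCL1 replicate 4 had the widest scatter: the spread between the probe sets of a gene, after each was centred on its mean, had a median SD of 0.43 over the members there and 0.22 to 0.30 on the other 7 replicates (0.45 and 0.30 to 0.38 over all genes). Without TCL1 replicate 4 the median r was 0.25.

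**Figure D4:**
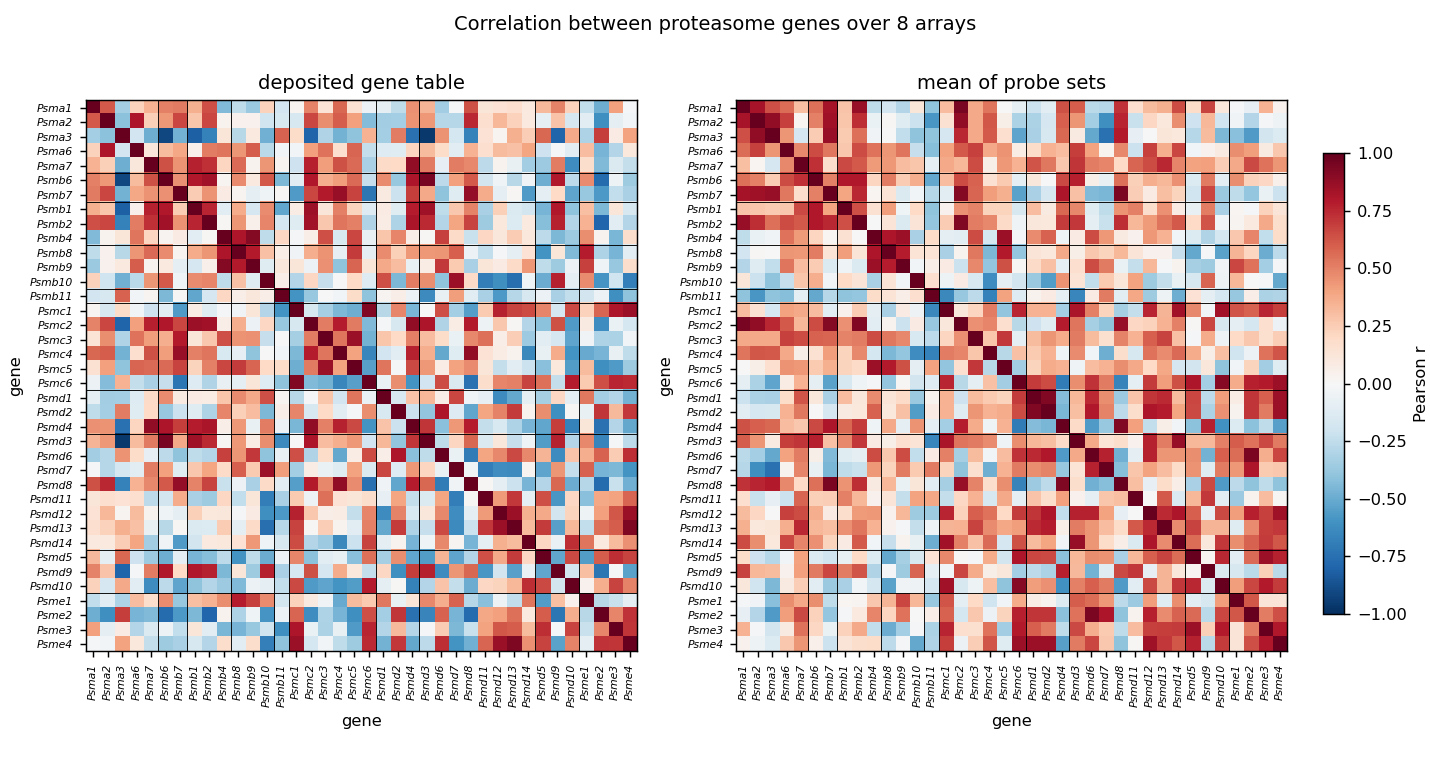
Pearson's r between proteasome genes over the 8 arrays, from the gene table on the left and from the mean of probe sets on the right; lines separate the structural groups in the order alpha ring, catalytic beta, structural beta, immunoproteasome, Psmb11, ATPases, other base subunits, lid, chaperones and activators. Positive values are more frequent on the right, where the median is 0.25, than on the left, where it is 0.07.

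Several members also followed the main axis of the other genes. The first principal component of all other genes held 27.5% of their variance, with ROR1xTCL1 array b (27.2) and TCL1 array d (32.7) at its upper end and ROR1xTCL1 array a (-28.0) and TCL1 array a (-23.3) at its lower end. Psmc1 (-0.89), Psmc6 (-0.94), Psmd10 (-0.82), Psme3 (-0.80), Psmd14 (-0.74) and Psme4 (-0.70) had r below -0.7 with it, which is 6 of 38 genes (5.34% of all genes), and 0 of 38 had r above 0.7 (11.9%). ROR1xTCL1 array b and TCL1 array d, an array from each genotype, were the 2 lowest for 5 of these, and for Psmd14 TCL1 array b lay between them.

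The gene table and the probe sets gave different levels for some members. The gene value lay within 1.5 log2 units of the mean of the probe sets for 32 genes, above it by more for 4 and below it by more for 2. Psma3 averaged 1.80 in the gene table and 8.47 over its 23 probe sets, and Psmd1 averaged 4.81 in the gene table and 7.91 over its 26. From the probe sets Psma3 read 8.48, 8.71, 8.23 and 8.85 on ROR1xTCL1 replicates 1 to 4, against 8.50, 8.31, 7.97 and 8.69 on TCL1 replicates 1 to 4, far above its gene values. The opposed correlations of Psma3 given above rest on its gene value. The core score and the core median r of the gene table hold that value too. The highest alpha ring difference, 0.16, is that of Psma3. From probe sets the core score was 0.12, 0.13, -0.22 and 0.15 on ROR1xTCL1 replicates 1 to 4. On TCL1 replicates 1 to 4 it was 0.05, -0.16, -0.07 and -0.01. The genotype difference had the same sign in both tables for 34 of 38 genes, with a median gap of 0.04 and a largest gap of 0.31 (Psme2).

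**Figure D5:**
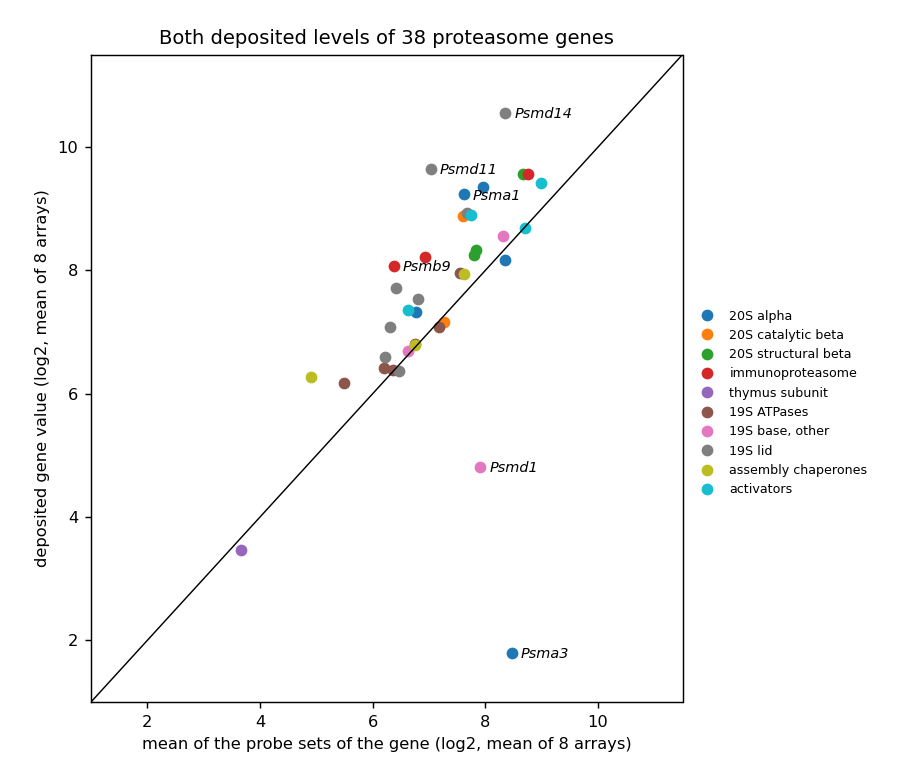
Mean log2 level over the 8 arrays of each of the 38 proteasome genes in the gene table (vertical axis) against the mean of its probe sets (horizontal axis), coloured by structural group, with the line of equal values. Psma3 and Psmd1 lie far below the line, and the 4 named genes above it lie over 1.5 log2 units higher in the gene table.

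The 38 genes were read by 600 probe sets, from 2 to 70 a gene. Of these, 5 had an unadjusted p under 0.05 (limma), or 0.83% beside 3.3% of all 1236087 probe sets, and 0 passed after adjustment (percent called 0%). The difference was above 0 for 397 of the 600 (66.2%), beside 49.8% of all probe sets. Probe sets of a gene share their RNA and are not independent. The 5 belonged to Psmb7, Psmd9 (2 of them), Psmd13 and Psmd14, and the Psmd14 probe set alone was lower in ROR1xTCL1.

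Of the genes that work with the proteasome, 0 passed the test in each list (limma; 0 also at an unadjusted p under 0.05). Of the other subunits and assembly factors, 6 of 9 were measured, 1 was above 0 and 5 below, with a median of -0.07. Pomp read 7.53, 7.84, 7.40 and 7.52 on ROR1xTCL1 arrays a to d, against 7.84, 7.71, 8.10 and 7.45 on TCL1 arrays a to d. The differences were -0.20 ± 0.16 (SE) for Pomp, -0.07 ± 0.12 (SE) for the core chaperone Psmg2 and -0.11 ± 0.20 (SE) for the inhibitor Psmf1. Of the 13 enzymes and shuttles bound to the proteasome 11 were above 0 and 2 below, with a median of 0.05; the ubiquitin ligase Ube3c differed by 0.11 ± 0.10 (SE), the deubiquitinase Usp14 by 0.16 ± 0.18 (SE) and the adaptor Ecpas by 0.08 ± 0.11 (SE).

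Nfe2l1, the transcription factor that raises proteasome genes when the proteasome is inhibited, belongs to a list of 12 with the p97 segregase, of which 10 were measured, 7 above 0 and 3 below, with a median of 0.06. Nfe2l1 read 7.16, 6.96, 6.81 and 7.14 on ROR1xTCL1 arrays a to d, against 6.99, 6.84, 7.30 and 7.19 on TCL1 arrays a to d. The smallest p of that list were those of the small Maf gene Maff (-0.48 ± 0.36, SE), Nfe2l2 (0.12 ± 0.18, SE) and the p97 adaptor Ufd1 (0.06 ± 0.12, SE). Of the ubiquitin genes and activating enzymes 4 of 6 were measured, 2 above 0 and 2 below, with the main activating enzyme Uba1 at 0.15 ± 0.11 (SE) and Uba6, the other activating enzyme, at 0.10 ± 0.11 (SE). Of the class I loading genes and their interferon regulators 11 of 12 were measured, 4 above 0 and 7 below, with a median of -0.06. Irf1 had the smallest p of these, at 7.61, 7.34, 6.87 and 7.92 on ROR1xTCL1 arrays a to d and 7.79, 7.70, 7.97 and 7.70 on TCL1 arrays a to d, a difference of -0.36 ± 0.21 (SE; limma unadjusted p = 0.119). The peptide trimmer Erap1 differed by -0.11 ± 0.12 (SE) and B2m, the light chain of class I, by -0.06 ± 0.09 (SE).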

How the data were processed

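Total RNA from leukemia cells of 8 mice was hybridised to Affymetrix Mouse Exon 1.0 ST arrays, without technical replicates. The probe set values are log2 RMA values made by the authors with the Bioconductor package oligo, per the labels, under R 2.15.1 per the submitters' processing notes. The sources used here do not say how the deposited gene values were made, beyond the Exon Array Computational Tool named in the series text; their scale was taken as log2 from the range of 0.89 to 12.64.

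From 16495 rows of the gene table, 4 with numeric names were left out and 72 names on several rows were averaged, which left 16419 genes. Of these, 14742 matched a RefSeq mouse symbol and 1454 a synonym, and 223 kept the deposited name. Gene values were also computed from the 321091 probe sets with a single symbol. Both tables were fitted by limma's lmFit and eBayes (limma 3.58.1, R 4.3.3; ROR1xTCL1 minus TCL1, Benjamini-Hochberg over all genes), a procedure tested on simulated data; correlations used Python 3.11.15, numpy 2.4.6 and pandas 2.3.3. The number of arrays, 4 a group, limits the precision. Samples sharing a replicate number correlated at 0.23, -0.0047, 0.22 and 0.11 in their deviations from the group means and were not treated as pairs.

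The members and gene lists were chosen with earlier results of these data known. Genes given with values on every array or replicate are the catalytic subunits, the activators, the tissue-restricted subunits and Ror1. The 2 members of smallest p in each structural group are given likewise, with Psma3 on the replicates of its probe sets. Up to 3 genes of smallest p per list are named too, most of them by their difference alone. Nfe2l1, Tap1, Tap2, Tapbp, Cd79a, Elane and Cebpe are named outside this rule. A gene of the ubiquitin list that the rule names is not reported here. Alternatives covered probe set summaries, normalization, filters, the variance model, a Y-linked term, a replicate block and leaving out arrays.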

Additional observations from a re-analysis of the deposited data

Results flagged for a closer look

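Samples were examined for standing far from the other 3 of their group in 102 sets of 4 values, of which 10 did by Dixon's criterion; chance gives about 1 in 20. TCL1 array c was the high array for Psmb8 (8.899, the others 7.903 to 8.049) and for the score of the structural beta subunits (0.184, the others -0.126 to -0.086), and the low array for Psmc2 (6.357, the others 6.424 to 6.433) and Psmc4 (6.915, the others 7.076 to 7.104). TCL1 array d was low for Psmc1 (5.788, the others 6.602 to 6.611) and Psme4 (6.715, the others 7.354 to 7.468), and high for the score of the constitutive catalytic subunits (0.178, the others -0.100 to -0.090). TCL1 array b was low for Psma6 (7.963, the others 8.211 to 8.228). In ROR1xTCL1, array d was high for Psmb9 (8.512, the others 7.993 to 8.076) and array b was low for the score of the activators (-0.390, the others 0.175 to 0.217).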

How the results depend on the processing

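In all 19 alternative settings 0 of the proteasome genes passed the test (limma), and the sign of the difference changed for 0 to 9 of 38 genes. At an unadjusted p under 0.05 (limma) there was 1 without ROR1xTCL1 array b, 3 without TCL1 array c and 0 in the others. The share of all genes under that p, 1.63% with every array kept, was not counted in these settings. These counts are therefore not read as a result about the proteasome genes. The median difference of the 3 base subunits outside the ATPases, 0.05 in the gene table, was 0.21 with probe set means, 0.22 with probe set medians, 0.21 with bright probe sets, 0.21 with the replicate block on probe set means and 0.15 with a term for Y-linked genes; leaving out an array gave -0.012 (without ROR1xTCL1 array b) to 0.21 (without ROR1xTCL1 array c). The median r between members was 0.25 with probe set means, 0.16 without TCL1 array d and ROR1xTCL1 array b, an alternative chosen after seeing the data, and 0.04 to 0.11 without each array in turn. Leaving out an array gave a median difference of 0.03 to 0.10 for all members and -0.12 to 0.24 for the immunoproteasome genes. Of the 5 genes read from probe sets alone, Psmb3 (-0.05) and Psmb5 (-0.10) lay on the other side of 0 without TCL1 replicate 4, a check chosen after seeing the data. The causes were not tested.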
